A study of Mus musculus with 18 samples.

Results

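CD103+CD11b+ cells of the mouse colon lamina propria were set against the other sorted subsets of the same tissue, CD103+CD11b- and CD103-CD11b+ cells. The CD103+CD11b+ cells are represented by 6 of the 18 arrays, chosen by the sort label alone, and each of the other subsets by 6 arrays. All subsets came from MHC+CD11chigh cells of BALB/c mice aged 8 weeks, and the mice were either untreated or treated with DSS (dextran sulfate sodium) at 2%, an agent that damages the gut lining and brings on colitis, with 3 arrays per group. Experiments 1 to 3 were untreated and experiments 4 to 6 were DSS, and every experiment contributed an array of each subset. How many mice were used per array is not given in the labels, so the p-values reflect only the spread among these arrays, which may be technical. No experiment held both conditions, so that DSS and the experiments it was given in cannot be told apart. In bulk RNA of sorted cells, fewer cells of a type and less RNA per cell cannot be told apart either.

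Conventional dendritic cells take up antigen, carry it to lymph nodes and prime T cells. They fall into cDC1, which depend on IRF8 and carry XCR1 and CLEC9A, and cDC2, which carry SIRP alpha and depend in part on IRF4. CD103 is the integrin chain that pairs with beta 7 and binds E-cadherin, and CD11b is the integrin chain that pairs with CD18. In the gut, cells with CD103 alone are mostly cDC1, cells with CD11b alone mix cDC2 with macrophages, and cells with both are cDC2 known for their need of Notch2 signalling and for driving interleukin 17 responses. The question put to the data was where the CD103+CD11b+ profile lies: outside both other subsets, or between them.

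Values are log2 expression per probe set, normalized by the authors with RMA, and 1 probe set stood for each of 14003 genes. Within each experiment the mean of the CD103+CD11b- and CD103-CD11b+ values was subtracted from the CD103+CD11b+ value, which gives 6 differences per gene. A gene was called on this difference at an adjusted p under 0.05 from limma, with the experiment number as a block. A gene was called on its position only if CD103+CD11b+ cells differed from each of the other subsets: the larger of both p-values was adjusted over all genes, and the gene was then placed above both, below both or between. The gap of a gene is the smaller of its 2 differences. Precision is limited by the number of arrays, and the median standard error was 0.0966 for the difference from the mean of the other subsets and 0.112 for the difference from each of them.

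The sort markers bore out the labels. Itgae, which encodes CD103, read 8.68 to 9.24 in CD103+CD11b+ arrays, 9.27 to 9.66 in CD103+CD11b- arrays and 6.24 to 7.65 in CD103-CD11b+ arrays. It was therefore lower than in CD103+CD11b- cells by a log2 difference of -0.54 ± 0.10 (SE) and higher than in CD103-CD11b+ cells by 2.05 ± 0.10, a call of between (adjusted p = 0.00532). Itgam, which encodes CD11b, read 7.10 to 7.64 in CD103+CD11b+ arrays against 4.70 to 6.13 in CD103+CD11b- arrays and 7.68 to 8.17 in CD103-CD11b+ arrays. It was also called between (1.70 ± 0.13 and -0.64 ± 0.13, adjusted p = 0.0173), a call lost without experiment 2, 4 or 6 (adjusted p of up to 0.111). Itgax, which encodes CD11c, was between by its means but not called (0.35 ± 0.10 and -0.35 ± 0.10, adjusted p = 0.0947). Of the defining cDC markers, Sirpa averaged 8.60 ± 0.16 (SD, n = 3) in untreated CD103+CD11b+ cells against 6.49 ± 0.28 in CD103+CD11b- cells, and Clec9a averaged 4.24 ± 0.18 against 7.88 ± 0.21. The macrophage receptor Mertk read 3.62 to 4.45 in the CD103+CD11b+ arrays, against 3.62 to 4.14 in CD103+CD11b- and 4.03 to 4.73 in CD103-CD11b+ arrays. These values lie near the filter level of 3.51. The other defining macrophage markers, Csf1r and Fcgr1, were called between. They were higher than in CD103+CD11b- cells by 0.92 and 0.71 and lower than in CD103-CD11b+ cells. Arrays of a group correlated at 0.965 to 0.982 over all probe sets, and 2 untreated arrays, both of experiment 2, lay far from their group on a principal component. These were CD103+CD11b+ replicate 2 on the second component (32.0, against 6.94 and 7.98 for its group) and CD103-CD11b+ replicate 2 on the third (-30.4, against 0.053 and -9.69).

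Over the 6 experiments, 1030 genes differed in CD103+CD11b+ cells from the mean of the other subsets (7.36% of the genes tested), 546 of them higher and 484 lower. The larger side depended on the normalization: quantile normalization applied again gave 513 higher and 532 lower. Most of the 1030 genes did not set CD103+CD11b+ cells apart from both: 560 differed from CD103+CD11b- cells but not from CD103-CD11b+ cells by the test of each pair, 164 the reverse, and 10 from neither. On position, 110 genes were called above both other subsets (0.786%), 50 below both (0.357%) and 132 between (0.943%). The order held within every experiment for 93 of the 110 genes, 44 of the 50 and 115 of the 132. Over all genes tested, without any test, 236 lay above both in every experiment (1.69%), 119 below both (0.85%) and 276 between (1.97%). The median gap was 0.58 for the genes above and -0.58 for those below, and a gap of at least 1 was reached by 10 genes above and 1 below. Of the 110 genes above, 3 (Crisp3, Macc1 and Rasgrf2) had passed the filter on low values through CD103+CD11b+ arrays alone, so that they had to differ. CD103-CD11b+ cells were the nearer subset for 83 of the 110 genes above and 37 of the 50 below. The nearer subset was not counted over all genes, so these counts are not read as a trait of the genes outside. Of all genes, 7.31% were called higher and 6.21% lower than in CD103+CD11b- cells. Against CD103-CD11b+ cells the shares were 3.36% and 3.71%. Without experiment 2, which held both arrays that lay far from their groups, 75 genes were above both, 35 below and 95 between. The count below both was 33 without experiment 1 or 5, 25 without experiment 4 and 26 without experiment 6, and the count between was 81 without experiment 5 and 83 without experiment 6.

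**Figure D1:**
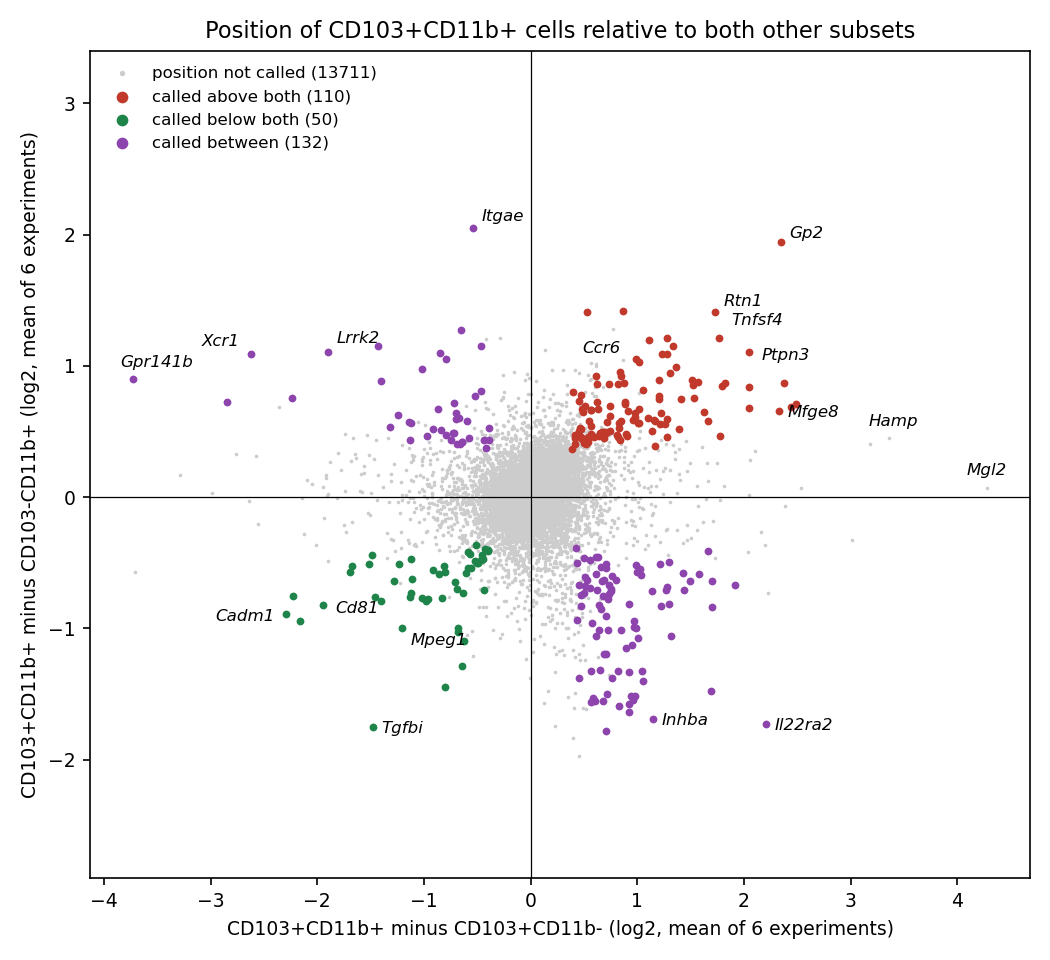
Each point is 1 of the 14003 genes. The horizontal axis is the log2 difference of CD103+CD11b+ from CD103+CD11b- cells and the vertical axis that from CD103-CD11b+ cells, both averaged over 6 experiments, and colour gives the position call (adjusted p under 0.05). Gp2 lies farthest into the upper right, Tgfbi farthest into the lower left, and genes such as Mgl2, high against 1 subset alone, lie along the axis.

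Gp2 had the widest gap above both subsets. It encodes glycoprotein 2, a membrane-anchored receptor for bacterial fimbriae best known from M cells of the gut epithelium. In CD103+CD11b+ cells Gp2 read 5.43, 8.20 and 6.44 in experiments 1 to 3 and 6.74, 6.80 and 8.03 in experiments 4 to 6. CD103+CD11b- cells gave 3.75, 6.24, 4.66, 3.57, 3.96 and 5.40 in the same order, and CD103-CD11b+ cells gave 4.15, 5.90, 5.20, 4.90, 4.82 and 4.99. The ranges of the subsets overlapped because experiment 2 read high in all 3 of them, but within each experiment the CD103+CD11b+ array was the highest. The log2 difference was 2.34 ± 0.18 from CD103+CD11b- cells and 1.94 ± 0.18 from CD103-CD11b+ cells (adjusted p = 5.52e-05). Tgfbi, which encodes a secreted matrix protein induced by TGF-beta, had the widest gap below. It read 8.12, 8.14 and 8.25 in untreated and 8.10, 8.85 and 8.64 in DSS CD103+CD11b+ cells. The CD103+CD11b- arrays ran from 9.74 to 9.99 and the CD103-CD11b+ arrays from 9.99 to 10.25. No CD103+CD11b+ array reached any of the other 12, and the differences were -1.48 ± 0.11 and -1.75 ± 0.11 (adjusted p = 1.17e-05).

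The 250 bases before the annotated start of 3 of these genes are shown, since they are the genes of widest gap in each direction, Gp2 and Tgfbi, and a gene above both whose promoter holds the motif of the myeloid factor PU.1. Sequences are from RefSeq on GRCm38.p6, 5′ to 3′ on the gene's strand: Gp2 at chr7:119459273-119459522 on the minus strand, B430306N03Rik at chr17:48315912-48316161 and Tgfbi at chr13:56609336-56609585, both on the plus strand. Capitals mark the matches to the motifs searched.
Gp2: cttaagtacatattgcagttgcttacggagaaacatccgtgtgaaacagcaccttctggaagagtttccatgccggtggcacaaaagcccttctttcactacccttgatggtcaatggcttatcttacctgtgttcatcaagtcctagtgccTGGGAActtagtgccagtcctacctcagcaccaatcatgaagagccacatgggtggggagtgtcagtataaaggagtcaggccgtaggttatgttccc
B430306N03Rik: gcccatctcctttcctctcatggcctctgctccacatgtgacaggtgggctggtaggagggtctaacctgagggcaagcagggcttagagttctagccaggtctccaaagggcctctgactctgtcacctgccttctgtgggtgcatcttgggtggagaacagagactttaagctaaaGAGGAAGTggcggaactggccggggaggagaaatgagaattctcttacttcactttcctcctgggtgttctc
Tgfbi: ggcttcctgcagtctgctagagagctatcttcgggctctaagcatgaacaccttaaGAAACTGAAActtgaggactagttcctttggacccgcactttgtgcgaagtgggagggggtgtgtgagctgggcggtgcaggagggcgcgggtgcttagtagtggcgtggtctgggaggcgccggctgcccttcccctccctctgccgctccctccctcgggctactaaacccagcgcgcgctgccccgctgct
In Gp2 the capitals are TGGGAA, the core bound by RBPJ, the effector of Notch, 98 bases before the start. In B430306N03Rik they are GAGGAAGT, a PU.1 motif, 72 bases before the start, and in Tgfbi a motif of the IRF family, GAAA and GAAA again after any 2 bases, 194 bases before it. Each of these 3 windows held no other match among the 6 motifs searched on both strands. The windows of Adam23, above both, and Mpeg1, below both, held no match to any of them and are not shown.

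A single promoter was listed for 63 of the 110 genes above, 27 of the 50 below and 8960 of all genes tested. TGGGAA was found in 14 of the 63 genes above (22.2%), 6 of the 27 below (22.2%) and 20.5% of all. GAGGAAGT was found in 4 of the genes above (6.35%), 3 of those below (11.1%) and 2.41% of all, and the AP-1 motif TGANTCA in 8 (12.7%), 3 (11.1%) and 4.67%. The STAT5 motif TTCNNNGAA was found in 5 of the genes above (7.94%), 0 of those below and 6.06% of all. The IRF motif was found in 1 of the genes above (1.59%), 2 of those below (7.41%) and 2.72% of all, and the NF-kappaB motif, GGGA and TTCC with any 2 bases between, in 0, 2 (7.41%) and 1.23%. These shares describe letters in a window and show no binding.

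**Figure D2:**
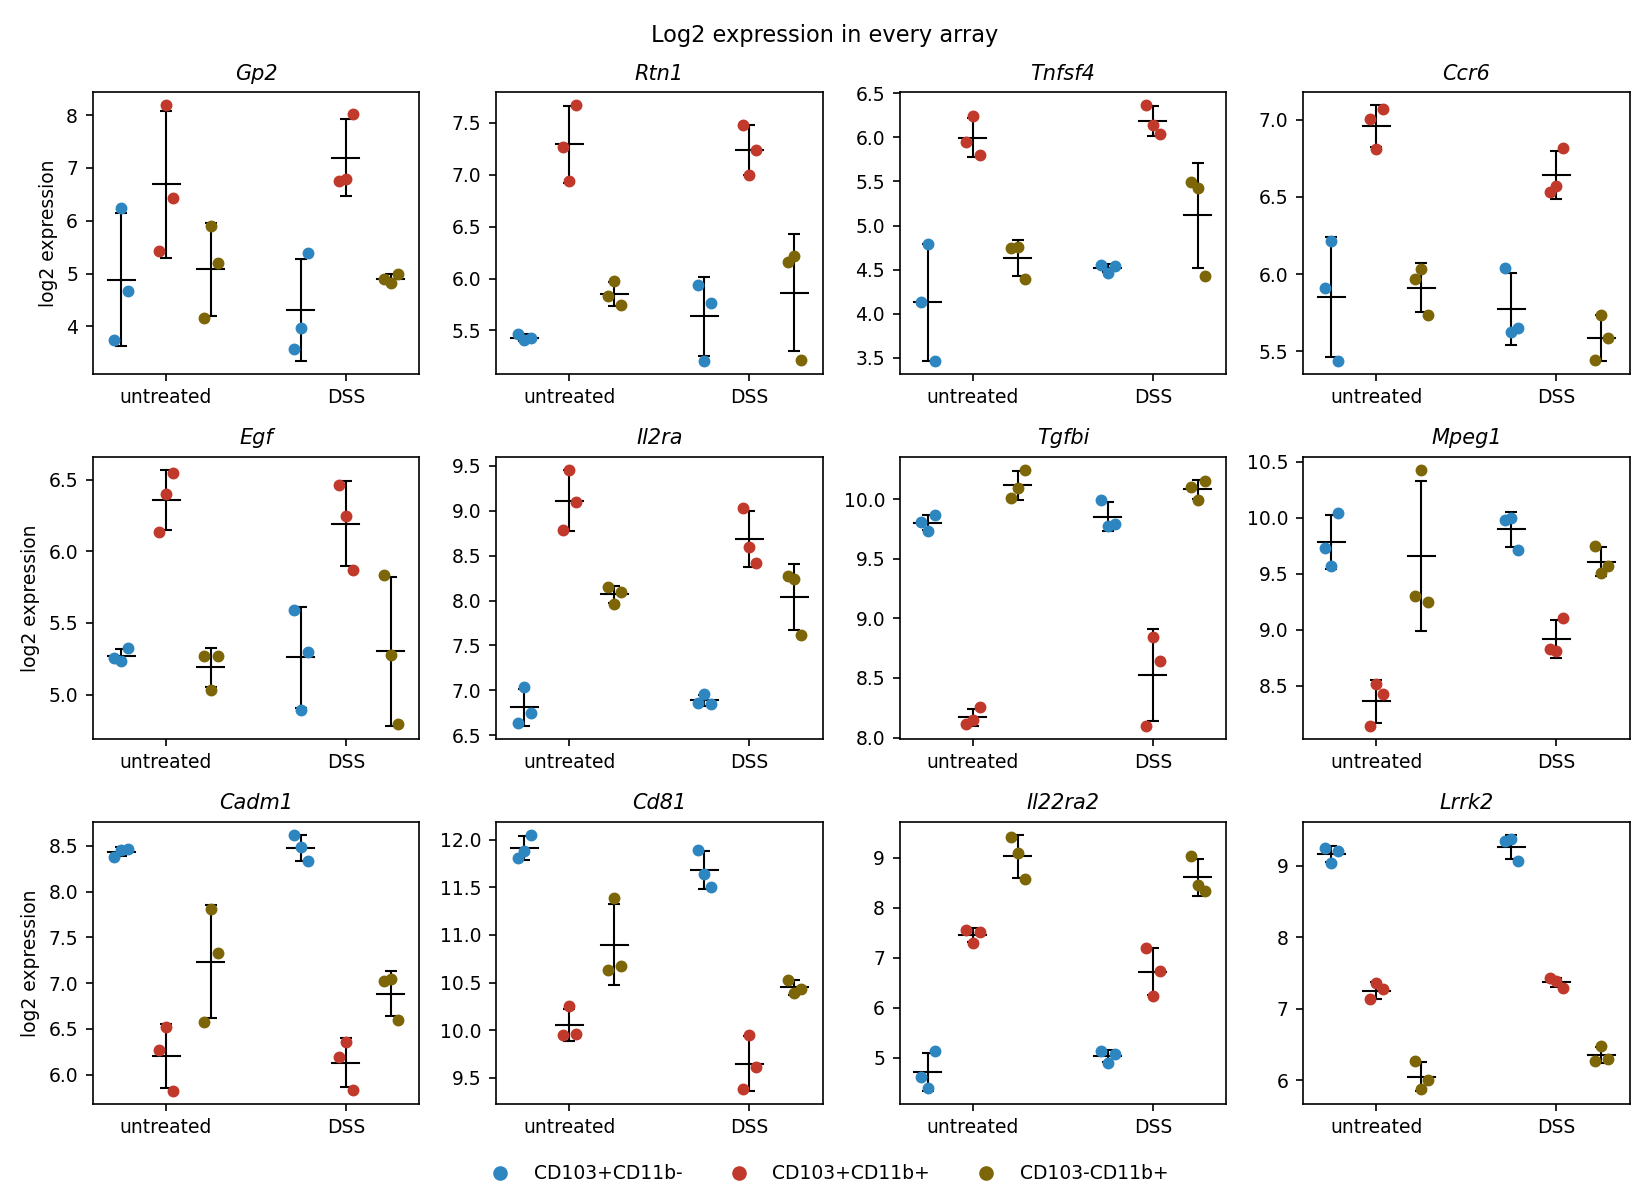
Log2 expression of 12 genes in every array, by subset and condition. Points are arrays, 3 for each of the 6 groups, with the mean and SD as black lines. Gp2, Rtn1, Tnfsf4, Ccr6, Egf and Il2ra are above both subsets, Tgfbi, Mpeg1, Cadm1 and Cd81 below both, and Il22ra2 and Lrrk2 between, in opposite orders.

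Tnfsf4, Ccr6, Egf, Slamf1 and Klri1, which encode ligands or receptors, were above both subsets. Tnfsf4, which encodes the costimulatory ligand OX40L, read 5.95, 6.24 and 5.80 in untreated and 6.37, 6.14 and 6.04 in DSS CD103+CD11b+ cells. CD103+CD11b- arrays ran from 3.47 to 4.79 and CD103-CD11b+ arrays from 4.39 to 5.50. No array of the other subsets reached the CD103+CD11b+ arrays, and the differences were 1.76 ± 0.15 and 1.21 ± 0.15 (adjusted p = 0.000277). Ccr6, the receptor for the epithelial chemokine CCL20, read 7.0, 6.81 and 7.07 in untreated and 6.53, 6.57 and 6.82 in DSS CD103+CD11b+ cells. The highest array of either other subset was at 6.21, so Ccr6 was separated in all 18 arrays (0.99 ± 0.13 and 1.05 ± 0.13, adjusted p = 0.000415). Egf, which encodes epidermal growth factor, read 5.87 to 6.55 in CD103+CD11b+ arrays, 4.89 to 5.59 in CD103+CD11b- arrays and 4.79 to 5.83 in CD103-CD11b+ arrays (1.01 ± 0.12 and 1.03 ± 0.12, adjusted p = 0.000209). Slamf1, a self-binding receptor of lymphocytes and dendritic cells, read 6.21 to 6.97 in CD103+CD11b+ arrays and at most 6.02 in the others (1.20 ± 0.09 and 0.89 ± 0.09, adjusted p = 8.97e-05). Klri1, a lectin-like receptor on the common DC list, was higher by 0.87 ± 0.14 against either subset (adjusted p = 0.00192).

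The other genes among the 10 of widest gap above both were Rtn1, Adam23, Ptpn3, Ctnnd2, Bbs9, Zfp791 and B430306N03Rik. Rtn1, a reticulon of the endoplasmic reticulum, read 7.27, 6.94 and 7.67 in untreated and 7.48, 7.0 and 7.23 in DSS CD103+CD11b+ cells, and at most 6.22 in any other array. Its differences were 1.73 ± 0.16 and 1.41 ± 0.16 (adjusted p = 0.000206). Adam23, a metalloprotease relative without catalytic activity, differed by 1.28 ± 0.16 and 1.21 ± 0.16, and the tyrosine phosphatase Ptpn3 by 2.05 ± 0.15 and 1.11 ± 0.15. Ctnnd2, a catenin of cell junctions, differed by 1.10 ± 0.13 and 1.20 ± 0.13. The BBSome subunit Bbs9, which acts in traffic to the primary cilium, differed by 1.23 ± 0.13 and 1.09 ± 0.13. The zinc finger gene Zfp791 differed by 1.28 ± 0.13 and 1.09 ± 0.13, and B430306N03Rik, listed by RefSeq with the synonym Treml6, by 1.34 ± 0.16 and 1.15 ± 0.16. For these 6 genes the highest adjusted p was 0.000933. A sign held in 6 of 6 experiments against both subsets was a condition for naming them and is no result.

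**Figure D3:**
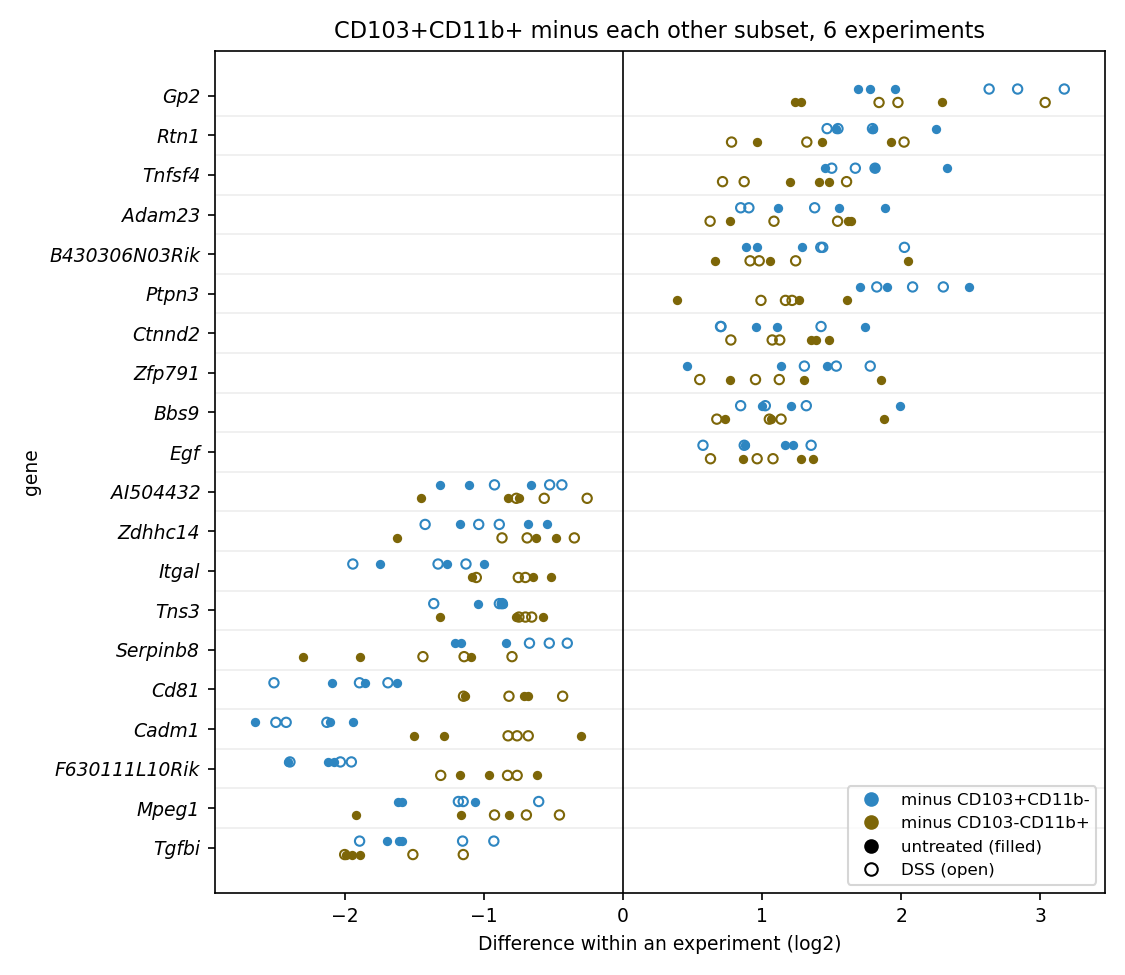
Log2 differences of CD103+CD11b+ cells within each experiment, from CD103+CD11b- cells (blue) and from CD103-CD11b+ cells (brown), for the 10 genes of widest gap above both subsets and the 10 below. Filled points are experiments 1 to 3 (untreated) and open points experiments 4 to 6 (DSS). All 12 points of each gene lie on 1 side of 0, which was a condition for choosing these genes.

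A further 7 genes above both are named here, all but Il18rap after their values were seen, and as no list holds them they show nothing of a group. Il2ra, the alpha chain of the interleukin 2 receptor, read 8.78, 9.45 and 9.10 in untreated and 9.03, 8.60 and 8.42 in DSS CD103+CD11b+ cells. CD103+CD11b- arrays ran from 6.64 to 7.04 and CD103-CD11b+ arrays from 7.62 to 8.27, so the subsets did not overlap (2.05 ± 0.12 and 0.84 ± 0.12, adjusted p = 0.0009). Stat5a and Stat5b, the transcription factors that relay interleukin 2 and GM-CSF signals, differed by 0.89 ± 0.09 and 0.48 ± 0.09 (adjusted p = 0.00986) and by 0.71 ± 0.09 and 0.57 ± 0.09 (adjusted p = 0.00209). Stat4, which relays interleukin 12, differed by 1.63 ± 0.11 and 0.65 ± 0.11 (adjusted p = 0.00348). Il18rap, the accessory chain of the interleukin 18 receptor, differed by 1.82 ± 0.16 and 0.87 ± 0.16 (adjusted p = 0.00792). Kynu, which degrades the tryptophan metabolite kynurenine, differed by 1.57 ± 0.10 and 0.88 ± 0.10 (adjusted p = 0.000175). Mfge8, which bridges phagocytes to apoptotic cells, differed by 2.33 ± 0.11 and 0.66 ± 0.11 (adjusted p = 0.00441). Lymphocytes also express several of these genes. The list of 18 tested T, NK and innate lymphoid genes had 0 members above both (all genes 0.786%). The list held 3 genes higher than in CD103+CD11b- cells (all genes 7.31%) and 0 higher than in CD103-CD11b+ cells (all genes 3.36%). Its mean level was 5.84 to 6.02 in untreated CD103+CD11b+ arrays, 5.64 to 5.68 in CD103+CD11b- arrays and 5.75 to 6.06 in CD103-CD11b+ arrays, and after DSS 5.88 to 6.07, 5.77 to 5.92 and 6.05 to 6.11. The part of such cells in these differences was not tested.

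The genes below both subsets included Mpeg1, Cd81 and the integrin chain Itgal. Mpeg1, which encodes the pore-forming perforin-2, read 8.14, 8.51 and 8.43 in untreated and 8.83, 8.81 and 9.11 in DSS CD103+CD11b+ cells. CD103+CD11b- arrays ran from 9.57 to 10.04 and CD103-CD11b+ arrays from 9.24 to 10.43. The subsets did not overlap (-1.20 ± 0.16 and -1.0 ± 0.16, adjusted p = 0.0023), and the highest value was that of untreated CD103-CD11b+ replicate 2, 1 of the 2 arrays that lay far from their groups. Cd81, a tetraspanin, read 9.95, 10.25 and 9.96 in untreated and 9.39, 9.95 and 9.61 in DSS CD103+CD11b+ cells, below every other array, of which the lowest was at 10.39 (-1.95 ± 0.12 and -0.82 ± 0.12, adjusted p = 0.00148). The leukocyte integrin chain Itgal, which encodes CD11a, differed by -1.40 ± 0.13 and -0.79 ± 0.13 (adjusted p = 0.0024). Its partner Itgb2, which encodes CD18, differed by -0.58 ± 0.09 and -0.42 ± 0.09 (adjusted p = 0.0258), a call that 7 of 13 alternatives lost (adjusted p of up to 0.133). Serpinb8, a protease inhibitor, differed by -0.80 ± 0.13 and -1.44 ± 0.13, and the focal adhesion gene Tns3 by -0.98 ± 0.11 and -0.79 ± 0.11. The palmitoyltransferase Zdhhc14 differed by -0.96 ± 0.13 and -0.77 ± 0.13, and the transcripts F630111L10Rik and AI504432 by -2.16 ± 0.10 and -0.94 ± 0.10 and by -0.83 ± 0.12 and -0.77 ± 0.12. For these 5 genes the highest adjusted p was 0.00348.

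Psap, Npc2, Galc, Scarb2 and Rab32 were also below both. Psap, Galc and Scarb2 are named after their values were seen, and lysosomal genes as a group were not counted. Psap, the precursor of the saposins that help to digest sphingolipids, read 10.21 to 10.52 in CD103+CD11b+ arrays and at least 10.88 in every other array (-0.69 ± 0.09 and -0.70 ± 0.09, adjusted p = 0.000495). Npc2, which moves cholesterol out of lysosomes, differed by -0.64 ± 0.09 and -0.73 ± 0.09 (adjusted p = 0.00113). Galc, the galactosylceramidase, differed by -1.46 ± 0.12 and -0.76 ± 0.12 (adjusted p = 0.00157), and the lysosomal membrane receptor Scarb2 by -0.81 ± 0.12 and -0.53 ± 0.12 (adjusted p = 0.0237). Rab32, a small GTPase of lysosome-related organelles, differed by -1.11 ± 0.11 and -0.62 ± 0.11 (adjusted p = 0.00364).

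The cDC1 programme placed CD103+CD11b+ cells by gene. Of its 24 tested genes, 20 were lower than in CD103+CD11b- cells and 0 higher, where 6.21% of all genes were lower and 7.31% higher. Against CD103-CD11b+ cells 9 were higher and 4 lower, where 3.36% of all genes were higher and 3.71% lower. The median difference from the mean of both was -0.69, against 0.02 over all genes tested. On position 7 were between, 3 below both and 0 above (all genes 0.943%, 0.357% and 0.786%). Those below were the adhesion molecule Cadm1, the small GTPase Rab7b and Irf8, the transcription factor of the cDC1 lineage. Cadm1 read 6.27, 6.52 and 5.82 in untreated and 6.19, 6.36 and 5.84 in DSS CD103+CD11b+ cells. The CD103+CD11b- arrays were at 8.33 to 8.62 and the CD103-CD11b+ arrays at 6.58 to 7.81, so that the subsets were separated (-2.29 ± 0.14 and -0.89 ± 0.14, adjusted p = 0.00191). Irf8 read 7.15, 7.13, 6.70, 6.90, 7.40 and 7.46 in experiments 1 to 6, against 8.61 to 9.01 in CD103+CD11b- and 7.38 to 8.01 in CD103-CD11b+ arrays. The CD103+CD11b+ and CD103-CD11b+ ranges overlapped, but within every experiment the CD103+CD11b+ array was the lowest (-1.69 ± 0.12 and -0.57 ± 0.12, adjusted p = 0.0164), and its call was lost without experiment 3, 4 or 6 (adjusted p of up to 0.0961). Rab7b differed by -2.23 ± 0.17 and -0.75 ± 0.17 (adjusted p = 0.0308), a call lost without experiment 1, 3, 4 or 6 (adjusted p of up to 0.1).

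The chemokine receptor Xcr1, which draws cDC1 to XCL1-secreting T and NK cells, lay between instead. It read 7.31, 6.47 and 6.68 in untreated and 6.68, 7.14 and 7.31 in DSS CD103+CD11b+ cells. The CD103+CD11b- arrays were at 9.42 to 9.76 and the CD103-CD11b+ arrays at 5.21 to 6.57, the latter overlapping with the CD103+CD11b+ range, but within each experiment the order was the same (-2.62 ± 0.13 and 1.09 ± 0.13, adjusted p = 0.000206). Flt3, the growth factor receptor of dendritic cells, was between in the same order (-0.79 ± 0.12 and 1.05 ± 0.12, adjusted p = 0.00128). The mannosyltransferase relative Dpy19l3 was between by -1.43 ± 0.13 and 1.15 ± 0.13 (adjusted p = 0.000175). The kinase Lrrk2 was between by -1.90 ± 0.09 and 1.11 ± 0.09 (adjusted p = 2.9e-05), while another probe set of Lrrk2 gave 0.18 against CD103-CD11b+ cells. In all, 42 of the 132 genes between had CD103+CD11b- cells highest and 90 had CD103-CD11b+ cells highest.

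In the cDC2 programme, the comparison with CD103+CD11b- cells gave 17 of 24 tested genes higher and 3 lower (all genes 7.31% and 6.21%). That with CD103-CD11b+ cells gave 2 higher and 6 lower (all genes 3.36% and 3.71%). The median difference from the mean of both was 0.48. On position 5 were between, 2 above both and 0 below (all genes 0.943%, 0.786% and 0.357%). The 2 above both were Tnfsf4, described before, and the inhibitory receptor Cd101 (0.74 ± 0.12 and 0.50 ± 0.12, adjusted p = 0.0426). Cd101 averaged under the filter level of 3.51 in CD103+CD11b- cells, so that its first difference may be a lower bound. Its call was lost in 8 of 12 alternatives (adjusted p of up to 0.214). Sirpa, the receptor for CD47, was between (1.57 ± 0.10 and -0.59 ± 0.10, adjusted p = 0.00302), and so was the repressor Zeb2 (1.01 and -1.07). Irf4, the transcription factor of cDC2, was higher than in CD103+CD11b- cells by 0.95 ± 0.11 and differed from CD103-CD11b+ cells by 0.15 ± 0.11, with no call on position (adjusted p = 0.914). Zbtb46, a transcription factor that marks conventional dendritic cells and not macrophages, was above both (0.46 ± 0.11 and 0.73 ± 0.11, adjusted p = 0.0328), a call that 7 of 13 alternatives lost (adjusted p of up to 0.24). The common DC list had 2 of 22 genes above, 3 between and 1 below (all genes 0.786%, 0.943% and 0.357%). The 1 below was the adhesion molecule Jaml (-1.24 ± 0.12 and -0.51 ± 0.12, adjusted p = 0.0326). Its call was lost in 7 of 13 alternatives (adjusted p of up to 0.125).

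Of 26 tested macrophage genes 9 were called between and 0 outside, over all experiments and in untreated cells (between in all genes 0.943% and 0.436%). After DSS 0 were called between, where the test placed 0.0643% of all genes there. The list's median differences from CD103+CD11b- and CD103-CD11b+ cells were 0.34 and -0.93 in untreated cells, and 0.26 and -0.76 after DSS. Over all experiments 11 of the 26 genes were higher and 0 lower than in CD103+CD11b- cells (all genes 7.31% and 6.21%). Against CD103-CD11b+ cells 1 was higher and 18 lower (all genes 3.36% and 3.71%). The list's mean level was 6.71 to 6.84 in untreated CD103+CD11b+ arrays, 6.12 to 6.34 in CD103+CD11b- arrays and 7.53 to 8.08 in CD103-CD11b+ arrays. After DSS it was 6.73 to 6.87, 6.49 to 6.63 and 7.46 to 7.73. Csf1r, the receptor for the macrophage growth factor CSF1, read 7.81 to 8.03 in CD103+CD11b+ arrays, 6.46 to 7.43 in CD103+CD11b- arrays and 9.15 to 9.87 in CD103-CD11b+ arrays (0.92 ± 0.11 and -1.58 ± 0.11, adjusted p = 0.000209). Fcgr1, the high-affinity receptor for IgG, was between by 0.71 ± 0.13 and -1.19 ± 0.13 (adjusted p = 0.00569; adjusted p = 0.0545 without experiment 1). Of 18 tested complement and Fc receptor genes 10 were between over all experiments, 9 in untreated cells and 0 after DSS (all genes 0.943%, 0.436% and 0.0643%). Their median differences were 0.84 and -1.01 in untreated cells, and 0.35 and -1.03 after DSS. Over all experiments 1, Itgb2, was below both. Those between included C1qa, C1qb and C1qc, which encode the chains of C1q, at 0.92 and -1.64, 0.72 and -1.50, and 0.82 and -1.32. Il22ra2, among the genes between with the widest gap and CD103-CD11b+ cells highest, is the soluble inhibitor of interleukin 22 and read 7.55, 7.29 and 7.52 in untreated and 7.19, 6.24 and 6.74 in DSS CD103+CD11b+ cells. CD103+CD11b- arrays were at 4.40 to 5.14 and CD103-CD11b+ arrays at 8.34 to 9.42, with no overlap between any subsets (2.21 ± 0.15 and -1.73 ± 0.15, adjusted p = 3.01e-05). Inhba, the subunit of activin A, was between by 1.15 ± 0.15 and -1.69 ± 0.15 (adjusted p = 0.000619), and Gm5150 by 1.69 ± 0.20 and -1.47 ± 0.20 (adjusted p = 0.000664).

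The difference from the mean of both subsets does not by itself place a gene, and C-type lectins gave examples. Mgl2, a galactose-binding lectin, had the highest difference from the mean of both subsets, 2.17 ± 0.12 (adjusted p = 7.24e-08). Its arrays read 8.73 to 9.77 in CD103+CD11b+, 4.25 to 5.68 in CD103+CD11b- and 8.76 to 9.74 in CD103-CD11b+ cells. It was higher than in CD103+CD11b- cells by 4.28 ± 0.13 and differed from CD103-CD11b+ cells by 0.07 ± 0.13, so it was not called on position. The lectin Clec10a (3.18 ± 0.17 and 0.40 ± 0.17) and Hamp, which encodes the iron regulator hepcidin (3.36 ± 0.26 and 0.45 ± 0.26), likewise had no call (adjusted p = 0.453 and 0.744). Of 21 tested lectins of the galactose, mannose and dectin families 16 were higher and 4 lower than in CD103+CD11b- cells (all genes 7.31% and 6.21%), and 3 were higher and 7 lower than in CD103-CD11b+ cells (all genes 3.36% and 3.71%). On position 8 were between (all genes 0.943%) and 0 outside.

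Junction and adhesion genes had 3 of 20 tested members above both (all genes 0.786%) and 0 below or between. The list was chosen with earlier results of these data known, so this share is a description and no test of the group. Those above were Ctnnd2, the tight junction gene Cldn1 (0.53 ± 0.12 and 1.41 ± 0.12, adjusted p = 0.0237) and Cdh1, which encodes E-cadherin, the ligand of CD103 (1.14 ± 0.11 and 0.50 ± 0.11, adjusted p = 0.018). Cldn1 read 9.89 to 10.61 in CD103+CD11b+ arrays, 9.17 to 10.24 in CD103+CD11b- and 8.29 to 9.12 in CD103-CD11b+ arrays, and in experiment 4 the CD103+CD11b- array exceeded the CD103+CD11b+ array. Both calls were lost in 5 of 13 alternatives, with an adjusted p of up to 0.132 for Cldn1 and 0.121 for Cdh1. Epithelial cells express these genes too. Of 24 tested epithelium markers 1, Cdh1 itself, was above both (all genes 0.786%). Of these markers 3 were higher than in CD103+CD11b- cells (all genes 7.31%) and 1 higher than in CD103-CD11b+ cells (all genes 3.36%). Their mean level was 7.44 to 7.91 in untreated CD103+CD11b+ arrays, 7.18 to 7.62 in CD103+CD11b- and 7.40 to 7.77 in CD103-CD11b+ arrays, and after DSS 7.29 to 7.45, 6.98 to 7.24 and 7.10 to 7.62. The part of epithelial RNA in the junction genes and in Gp2 was not tested.

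Further lists held few position calls, and percentages called over all genes are those given for the 110, 50 and 132 genes. The chemokine receptors had Ccr6 above and Xcr1 between of 17 tested. Maturation and migration genes had 1 of 23 above, Tnfsf4. Retinoic acid and TGF-beta genes had Tgfbi below and 2 between of 31, the Notch pathway 1 between of 26, namely its effector Rbpj (-0.44 and 0.44), and cytokines 4 between of 25. Immediate-early and heat shock genes had Nr4a3 above (0.52 ± 0.09 and 0.45 ± 0.09, adjusted p = 0.00893; lost in 3 of 13 alternatives, adjusted p of up to 0.0948) and Nr4a2 between of 26. MHC class I and class II presentation had 2 between of 17 and of 16, pattern recognition 2 of 23, chemokines 2 of 30, tissue repair 3 of 26, iron handling 1 of 22 and plasmacytoid DC 1 of 11. Monocyte, interferon-stimulated, interferon-gamma, cell cycle, glycolysis, B and plasma cell, eosinophil and mast cell, stroma and erythroid lists had 0 calls of 13, 23, 17, 29, 24, 15, 12, 23 and 2 genes.

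**Figure D4:**
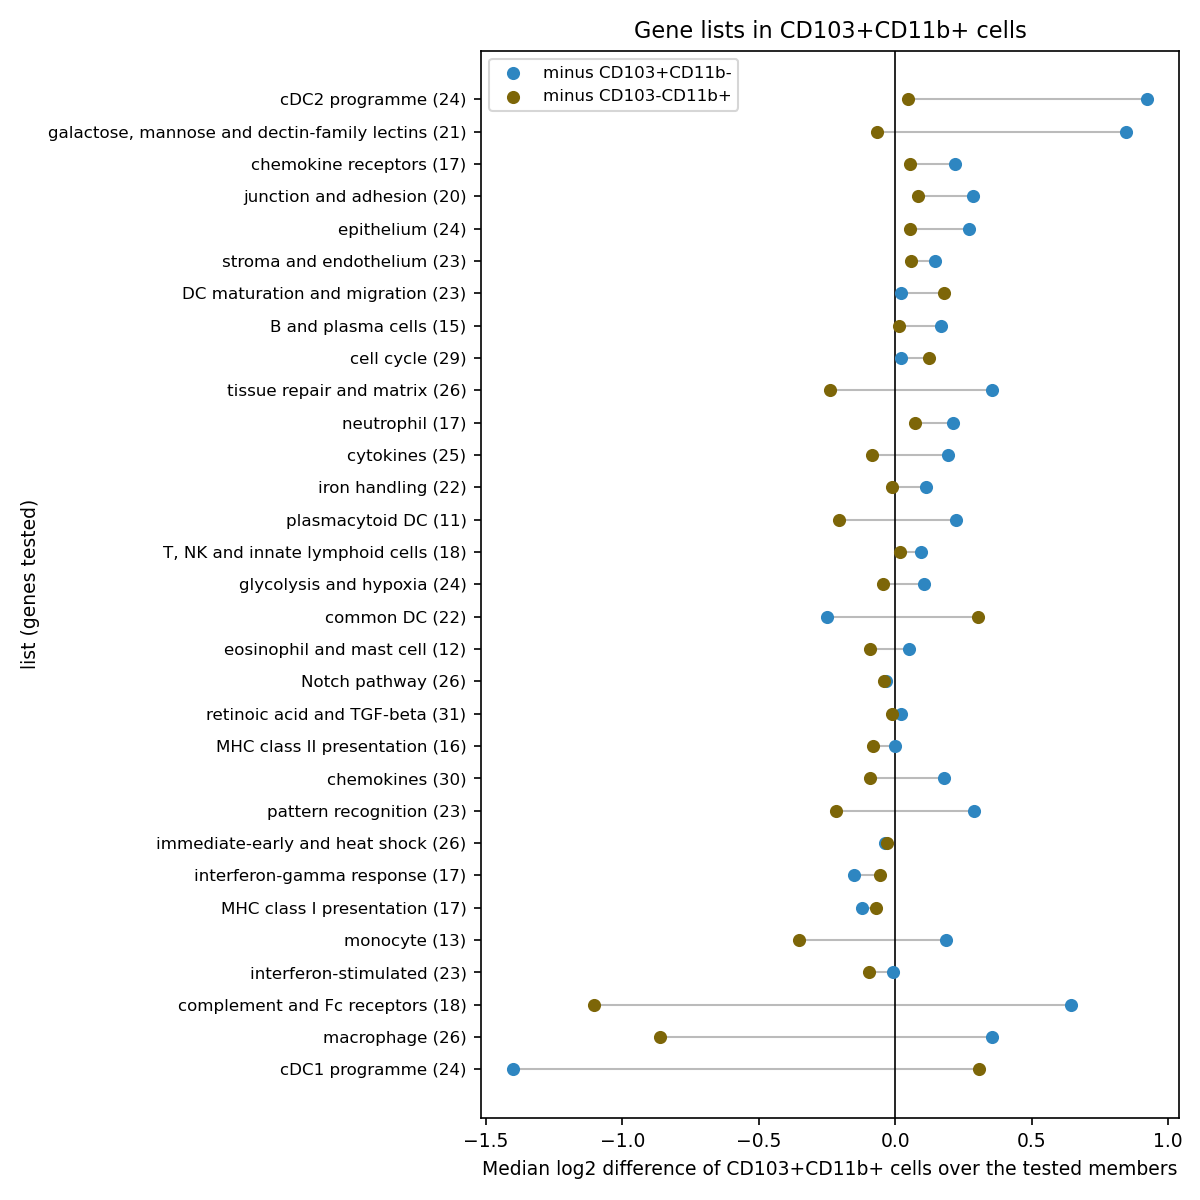
Median log2 difference of CD103+CD11b+ cells from CD103+CD11b- cells (blue) and from CD103-CD11b+ cells (brown) over the tested members of each list with at least 10 of them, ordered by the median difference from the mean of both. The cDC1, macrophage, and complement and Fc receptor lists have their medians on opposite sides of 0. So do other lists, among them common DC (-0.25 and 0.30) and tissue repair and matrix (0.35 and -0.24). The cDC2 median lies at 0.92 against CD103+CD11b- cells and at 0.05 against CD103-CD11b+ cells.

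In untreated cells alone 656 genes differed from the mean of the other subsets (4.68%), 456 higher and 200 lower, and after DSS 397 did (2.84%), 160 higher and 237 lower. Applying quantile normalization again changed the split to 351 higher and 265 lower in untreated cells, or from 69.5% to 57.0% higher, and to 175 and 201 after DSS. In untreated cells 64 genes lay above both (0.457%), 19 below both (0.136%) and 61 between (0.436%). With quantile normalization applied again these were 45, 24 and 58. After DSS the counts without that step were 8 (0.0571%), 7 (0.05%) and 9 (0.0643%). These counts rest on 3 experiments each: the untreated count above both was 20 without experiment 1, 20 without experiment 2 and 22 without experiment 3, that below both 5, 4 and 10, and that between 27, 28 and 26. The DSS count above both was 2 without experiment 4 and 1 without experiment 5 or 6, that below both 0, 1 and 0, and that between 0, 0 and 0. Untreated experiments enter the DSS counts through the shared estimate of the spread: without experiment 2 these were 18, 13 and 18, without experiment 1 below both 3, and without experiment 3 above and below both 4 and 2. The counts on the mean contrast were 341 and 374 in untreated cells without experiments 1 and 2, and 116, 223 and 123 after DSS without experiments 4, 5 and 6.

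Positions called in one condition were looked up in the other, which shares no array with it. The calls nevertheless used an estimate of spread to which the arrays of both conditions contributed. Genes with a steady order in the other condition were thus more readily called, and the lookup is not independent of the choice of genes. This holds above all for the order in each of the 3 experiments. Of the 64 genes above both in untreated cells 60 were above both by their means after DSS (93.8%, against 28.2% of all genes) and 48 were so in each of the 3 DSS experiments (all genes 5.06%). Of the 19 below both, 19 were below by their means (all genes 32.1%) and 16 in each experiment (all genes 5.93%), and of the 61 between, 59 were between by their means (all genes 39.6%) and 51 in each experiment (all genes 5.56%). The test after DSS called 7, 3 and 8 of them. In the reverse direction 7 of 8 genes above held their position by the means (all genes 43.5%), 7 of 7 below (all genes 21.4%) and 9 of 9 between (all genes 35.1%). The 6 differences of a gene from the mean of the others were correlated across the 14003 genes, which are not independent replicates, at 0.22 to 0.38 between untreated experiments, 0.28 to 0.43 between DSS experiments and 0.17 to 0.38 across conditions.

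Distance to the other subsets was also read in genes chosen in the other condition, with the same shared estimate of spread. Genes were first chosen in untreated mice by the test of CD103+CD11b- against CD103-CD11b+ cells, which called 728 higher (5.2%) and 809 lower (5.78%). Of the 728 genes high in CD103+CD11b- cells, the CD103+CD11b+ mean after DSS was nearer to CD103-CD11b+ cells for 553 and nearer to CD103+CD11b- cells for 175. Of the 809 genes high in CD103-CD11b+ cells, it was nearer to CD103-CD11b+ cells for 381 and nearer to CD103+CD11b- cells for 428. With the genes chosen after DSS and measured in untreated cells, 446 of 645 (4.61% called) and 445 of 699 (4.99% called) were nearer to CD103-CD11b+ cells. CD103+CD11b+ cells thus lay nearer to CD103-CD11b+ cells in genes high in CD103+CD11b- cells, whereas genes high in CD103-CD11b+ cells were split in a way that differed between both readings.

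The widest gaps in untreated cells beyond the 10 genes of widest gap in each direction over all experiments belonged to A530064D06Rik (1.28 ± 0.18 and 1.41 ± 0.18, adjusted p = 0.00196), the G protein subunit Gng4 (2.00 ± 0.20 and 1.27 ± 0.20, adjusted p = 0.00484) and Il18rap (2.23 ± 0.23 and 1.18 ± 0.23, adjusted p = 0.0186) above both. After DSS their differences from CD103-CD11b+ cells were 0.48, 0.43 and 0.56, without a call on position. Below both in untreated cells were Fam102b (-1.12 ± 0.17 and -1.05 ± 0.17, adjusted p = 0.00498), Lacc1, a laccase-like enzyme of macrophages (-1.43 ± 0.19 and -0.91 ± 0.19, adjusted p = 0.0264), and the semaphorin Sema6d (-1.12 ± 0.15 and -0.89 ± 0.15, adjusted p = 0.00883). Lacc1 lost its call in 7 of 13 alternatives (adjusted p of up to 0.138), Il18rap and Sema6d in 3 each (up to 0.0941 and 0.177) and Fam102b in 2 (up to 0.137).

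Of the 8 genes above both after DSS, 7 were also called above both in untreated cells, and the other was Crisp3, a cysteine-rich secreted protein of exocrine glands and neutrophil granules. It read 2.67, 3.13 and 3.54 in untreated and 4.75, 4.79 and 5.40 in DSS CD103+CD11b+ cells, against 2.25 to 3.45 in all other arrays. All 12 arrays of the other subsets lay under the filter level, so Crisp3 was tested only because of its CD103+CD11b+ arrays. Its differences after DSS, 1.80 and 2.14, may be lower bounds and are given as a description. Il1f9, which encodes IL-36 gamma and is on the neutrophil list, was above both after DSS (1.36 ± 0.18 and 0.98 ± 0.18, adjusted p = 0.0371) as in untreated cells (1.37 and 1.0, adjusted p = 0.0106). Slamf1 was above both after DSS (1.0 ± 0.13 and 0.80 ± 0.13, adjusted p = 0.0223) and in untreated cells (1.40 and 0.99, adjusted p = 0.00107). Of 17 tested neutrophil genes 1, Il1f9, was above both over all experiments (all genes 0.786%). Their mean level after DSS was 5.30 to 5.85 in CD103+CD11b+, 5.01 to 5.56 in CD103+CD11b- and 5.26 to 5.91 in CD103-CD11b+ arrays, against 4.97 to 5.11, 4.68 to 4.85 and 4.94 to 5.17 in untreated cells, and the part of neutrophil RNA was not tested. Below both after DSS were Gatm, an enzyme of creatine synthesis (-0.97 ± 0.17 and -0.97 ± 0.17), Rab32 (-1.25 ± 0.15 and -0.83 ± 0.15) and Npc2 (-0.79 ± 0.13 and -0.72 ± 0.13), each at an adjusted p = 0.0371. In untreated cells these 3 genes were not called on position (adjusted p = 0.22, 0.373 and 0.115). The DSS calls of Il1f9, Gatm, Rab32 and Npc2 were lost in 6, 6, 6 and 7 of 13 alternatives and that of Slamf1 in 4 (adjusted p of up to 0.78).

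The DSS minus untreated change of the difference was tested for every gene, and limma called 0 of 14003 (0%), with a lowest adjusted p of 0.28 and 1005 genes at an unadjusted p under 0.05. A call in a single condition is thus not shown to differ between conditions. The lowest p-values belonged to Crisp3 and Mgl2. For Crisp3 the untreated group means were all under the filter level, so the size of its change is not given. Mgl2 went from 2.84 to 1.51, a change of -1.32 ± 0.23 (adjusted p = 0.28). Mgl2 was the 1 gene called when experiment 1 was left out (-1.61, adjusted p = 0.0476). In DSS arrays Mgl2 read 9.07, 8.73 and 8.94 in CD103+CD11b+ cells and 5.52, 5.30 and 5.68 in CD103+CD11b- cells, against 9.29, 9.77 and 9.75 and 4.76, 4.36 and 4.25 in untreated cells. Map9, a microtubule-associated protein, and the kelch protein Klhl41 had changes of 0.97 ± 0.24 (adjusted p = 0.642) and 0.84 ± 0.22 (adjusted p = 0.656), and Insl6 and the cell-cycle ligase subunit Cdc26 of -0.97 ± 0.19 (adjusted p = 0.453) and -1.24 ± 0.25 (adjusted p = 0.577).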

How the data were processed

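The deposited table holds log2 expression values, made by the authors with RMA per the submitters' processing notes, which give no version. Of 34760 probe sets, 21640 had 1 gene symbol, 1321 several and 11799 none, and 21553 of the first matched the GRCm38.p6 gene table, used for names. A probe set was kept if above the 40th percentile of all values (3.51) in at least 3 arrays. The one with the highest mean stood for its gene, leaving 14003 of 19937 genes. The files carry no detection calls, and 3.51 is a filter level and no measured floor. A difference from a mean under it may be a lower bound. A group mean lay under it for 9 of the 110 genes above both, 0 of the 50 below and 3 of the 132 between.

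All 18 arrays entered 1 limma model (version 3.58.1, R 4.3.3) with a mean per subset and condition and the experiment number as a fixed block, which was tested on simulated data. All tests were two-sided with Benjamini-Hochberg adjustment, and errors beside differences are standard errors. The number pairs the arrays. Residuals of same-number arrays correlated across genes at -0.03 to 0.32 in untreated cells (8 of 9 pairs over 0.1). In DSS cells they correlated at 0.11 to 0.31 (9 of 9 pairs). Every array was closest to 1 of its own number. Other pairs had medians of -0.12 in untreated and -0.13 in DSS cells. As residuals of a group sum to 0, these medians follow from the same-number values and add no separate support. Since 1 untreated pair fell short of 0.1, the closing section also gives the fit without the block.

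Named are the sort markers, the 10 genes above and 10 below with the widest gap and 1 sign in 6 of 6 experiments, 3 between in each order, 3 each way per condition, the 3 lowest p-values each way for DSS, and list members called outside. Of 695 genes on 32 lists 600 were tested. Members and lists were chosen with earlier results of these data known, so list counts beside the share of all genes are descriptions. Alternatives were other filters, normalization, probe sets, variance models, a size limit, the differences alone and leaving out each experiment.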

Additional observations from a re-analysis of the deposited data

Results flagged for a closer look

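Bbs9 was flagged because experiment 1 stood apart from the rest of its 6 differences from the mean of the other subsets. That difference was 1.93, against a median of 1.03 over the other 5, with a gap of 0.638 of the range. Csf1r was flagged for experiment 3, where the difference was 0.226 against a median of -0.469 over the others, with a gap of 0.685 of the range. Chance gives such a flag in about 1 of 20 groups.

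Flt3 was flagged because its difference from the mean of the others was above 0 in each untreated experiment (0.41, 0.69 and 0.17) and below 0 in each DSS experiment (-0.22, -0.11 and -0.18). The DSS minus untreated change was -0.594, and the test of that change did not call it (adjusted p = 0.661).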

How the results depend on the processing

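The 10 genes of widest gap above both subsets and the 10 below kept their call and direction in each of the 13 alternatives, which leave out the size limit. With a gap of at least 1, 10 genes were above both over all experiments and only 1 below. Over all named genes and these 13 alternatives, 730 values stayed on their side of the threshold, 97 lost the call, 2 gained one and 0 changed direction. Without the replicate block, counts over all experiments were 868 for the mean contrast, 89 above, 38 below and 100 between, and 12 below and 38 between in untreated cells and 5 above and 4 between after DSS moved by over 1.5 times. The differences alone gave 270 for the mean contrast, 12 above, 2 below and 20 between in untreated cells, and 2, 0 and 1 after DSS. With the 60th percentile filter 16 genes were between after DSS, and with an intensity trend and robust estimation 23 were above, 12 below and 30 between. With a size of at least 1 the counts for the mean contrast, above, below and between were 102, 21, 6 and 27 in untreated cells, 69, 4, 1 and 3 after DSS and 71, 10, 1 and 10 over all experiments. Leaving out each experiment gave 341 to 550, 20 to 49, 4 to 15 and 26 to 51 in untreated cells, 116 to 434, 1 to 18, 0 to 13 and 0 to 18 after DSS, and 730 to 863, 75 to 87, 25 to 35 and 81 to 95 over all experiments, and 0 to 1 for the DSS minus untreated change. Fewer arrays entered those fits; for the other settings the cause was not tested.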
